A study of Bos taurus with 30 samples.

Results

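The samples described here are the regional comparisons of the endometrium, the lining of the uterus, in cows carrying a conceptus made by somatic cell nuclear transfer (SCNT, cloning). They were chosen by the label for the reproductive biotechnology and comprise 10 of the 30 arrays of the series, from 5 of its 15 animals. Each array compared the caruncular with the intercaruncular endometrium of 1 animal on a 2-colour array, and each SCNT animal had 2 arrays with the dyes exchanged. The same comparison was made in 5 animals after artificial insemination (AI) and in 5 after in vitro fertilisation with embryo transfer (IVF-ET). The labels used here give no day of pregnancy, donor cell, breed or age. The study set out to compare the 2 endometrial areas in the 3 kinds of pregnancy.

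The ruminant endometrium has aglandular, raised caruncles, which become the maternal side of the placentomes, and glandular intercaruncular areas, whose secretions nourish the conceptus. Caruncles are dense stroma under a luminal epithelium. Around implantation the trophoblast of the conceptus secretes interferon tau, which keeps the corpus luteum functioning and induces interferon-stimulated genes in the endometrium. Cloned bovine pregnancies are known for frequent losses and for abnormal placentation.

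Values are the deposited log ratios, taken as log2 because the log base was not given, after averaging the 2 spots of a probe, centring each array on its median and averaging the 2 arrays of an animal. Where only 1 array of an animal had a value, that value was used after the mean dye effect of the probe was taken off. This effect was estimated over the animals with both dye orientations. The labels name the dye of each tissue but not the numerator of the ratio, so values are given by the side of 0 on which they lie, and neither side is assigned to a tissue. A ratio also holds no level, so whether a marker was expressed at all cannot be read from it. Each of the 10 arrays had a value for 27298 to 27643 of 27648 spots. The 2 arrays of an animal correlated above 0 as deposited in all 5 animals (r across probes of 0.0823, 0.107, 0.231, 0.300 and 0.654 in animals 1 to 5), which is why each ratio was read as tissue against tissue and no array was turned. With the mean dye effect of each probe removed, the correlation was 0.306, 0.226, 0.124, 0.128 and 0.791. This removal takes the ratios as tissue against tissue from the start, so these values do not test that reading. A dye bias common to the arrays would also make ratios of the dyes correlate above 0. The reading was therefore chosen and is not settled by these correlations.

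Animal 5 stood apart from the other 4. Its SD over all probes was 0.702, against 0.216 to 0.324 in the other animals of all 3 groups. In animal 5, 224 of the 8073 named genes lay below -2 and 4 above 2, while the other SCNT animals had 1 to 6 genes below -2 and 1 above 2. Its values correlated with those of the other SCNT animals at r = 0.013 to 0.211, and the values of animals 1 to 4 with each other at 0.270 to 0.427. For the gene lists, counts past the threshold are therefore also given without animal 5 where they changed. Means without it are given for some of the genes that rest on it.

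**Figure D1:**
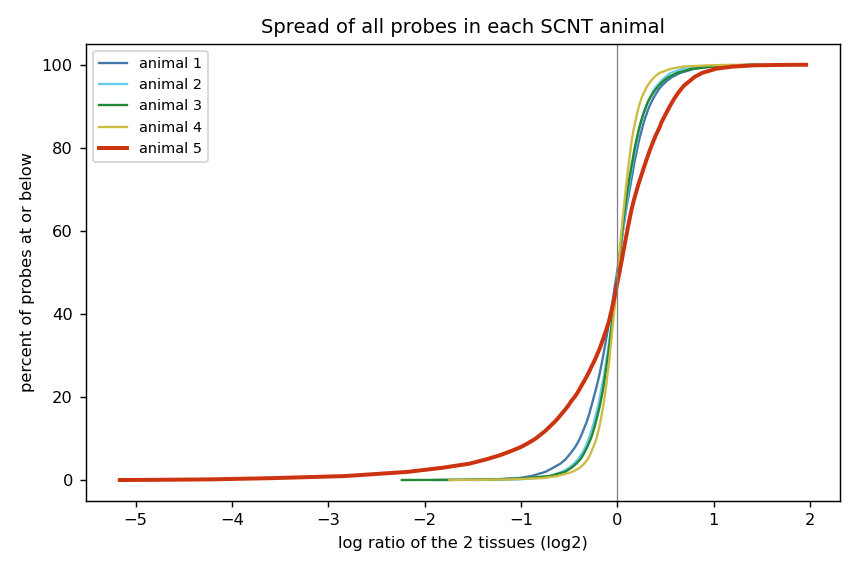
Cumulative percentage of probes (y axis) at or below each log2 ratio (x axis) in each of the 5 SCNT animals. The line of animal 5 extends to values near -5 on the negative side, and the lines of the other 4 animals rise steeply around 0.

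Across the SCNT animals, 252 of 13818 probes tested (1.82%) differed from 0 between the 2 areas in a limma fit with a Benjamini-Hochberg adjusted p under 0.05. Of these, 106 were positive and 146 negative (0.767% and 1.06% of probes). Among 8073 named genes, 165 passed (2.04%), 65 positive (0.805%) and 100 negative (1.24%). At an unadjusted p under 0.05 in limma there were 1349 of the 8073. The mean was positive in 3701 and negative in 4372. The list counts below are to be read beside these counts for all named genes. The median absolute mean of the 252 probes was 0.67, with a range of 0.32 to 2.47, against 0.10 over all probes. In 247 of the 252, every animal lay on the side of the mean, as did 14.3% of all probes, and 172 were on that side on all 10 arrays, as were 2.68% of all probes. The exceptions among the genes were ATP6V1A, IL6R and SLC27A6, each with 1 animal across 0. The 252 probes were chosen on their mean over these same animals and arrays, so this agreement in sign largely follows from the choice. The fit took its spread from all 3 groups. With the 5 SCNT animals fitted alone 74 probes passed (67 of them among the 252), and without animal 1, 2, 3 or 4 the counts were 2, 95, 108 and 167. No probe passed when the values were read instead as ratios of the dyes (1321 at an unadjusted p under 0.05), or when IVF-ET replicate 3 was included with the sign of its second array changed (1931). The main fit had 2043 probes at that unadjusted level.

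**Figure D2:**
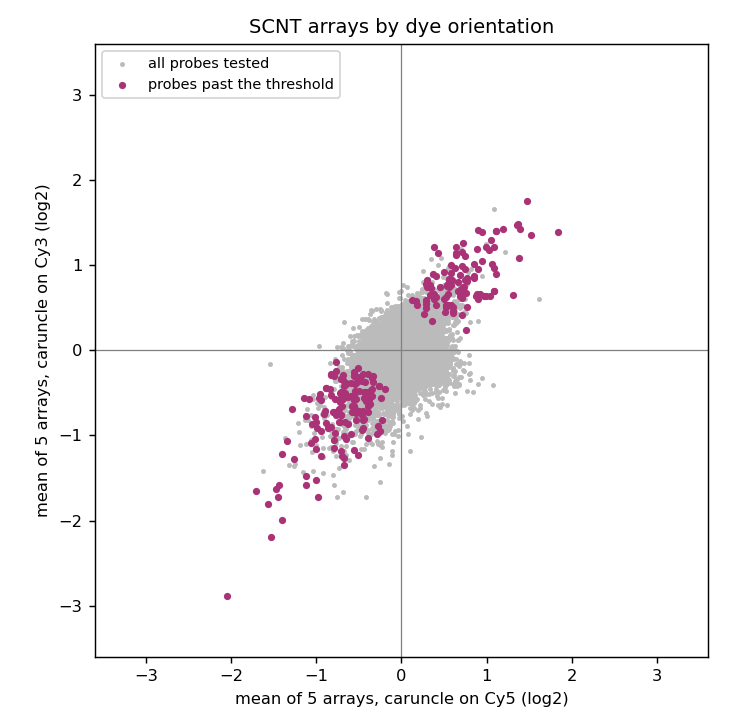
Mean log2 ratio of each probe over the 5 SCNT arrays with caruncle on Cy3 (y axis) against the mean over the 5 arrays with caruncle on Cy5 (x axis). All 252 probes past the threshold (coloured) lie on the same side of 0 in both dye orientations, while the bulk of probes (grey) is centred on 0. The coloured probes were chosen on their mean over these same arrays, so this agreement largely follows from the choice. The share of all probes with such agreement is not given here.

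The largest regional difference was that of H19 (gene ID 100126192), an imprinted long noncoding RNA of fetal and placental tissue. Its values in animals 1 to 5 were -2.51, -2.99, -1.34, -2.13 and -3.37, the 2 areas differing 5.53-fold on average (mean -2.47 ± 0.34 SE, limma adjusted p = 0.0105). All 5 animals and all 10 arrays were negative, and animal 3 was nearest to 0. IGF2, the imprinted fetal growth factor next to H19 on the chromosome, was negative as well, at -0.80, -0.58, -0.79, -0.80 and -0.96 (mean -0.78 ± 0.14 SE, limma adjusted p = 0.0117). The spread of IGF2 among animals was small, with animal 5 close to the rest. The pair was 1 of 2 pairs of neighbouring measured genes that both passed the threshold. The other pair was SLC44A1, a choline transporter (0.55), and the zinc finger gene ZNF462 (-0.58), which lay on opposite sides. Of 22 imprinted genes measured, H19 and IGF2 passed, both negative, where 1.24% of all named genes passed negative. The median of the list was -0.079 against -0.015 for all named genes. Without animal 5 the tetraspanin gene CD81, which had been -4.52 in that animal and -0.58 to -0.38 in the others, also passed. Of all named genes 145 passed without animal 5 (1.8%), 63 positive (0.78%) and 82 negative (1.02%).

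Among other genes of the insulin-like growth factor axis, IGFBP6, a binding protein with preference for IGF2, measured -1.70, -1.15, -0.20, -0.93 and -2.80 (mean -1.35 ± 0.26 SE, limma adjusted p = 0.0143). Animal 3 was close to 0 and animal 5 was the most negative, and without animal 5 the mean was -0.99. Thus 2 of 16 genes of this axis passed, both negative (1.24% of all named genes did), and the list median was -0.056. IGFBP1, IGF1R and IGF2R did not pass, with means of 0.59, -0.046 and 0.19.

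The heparin-binding growth factors pleiotrophin and midkine lay on the negative side. Pleiotrophin (PTN, gene ID 280904) measured -2.67, -1.86, -1.41, -1.67 and -1.69 (mean -1.86 ± 0.33 SE, limma adjusted p = 0.0117), a 3.63-fold difference that was largest in animal 1. Midkine (MDK) measured -0.97, -0.62, -0.82, -0.91 and -1.63 (mean -0.99 ± 0.19 SE, limma adjusted p = 0.0146). SDC2, a cell surface heparan sulfate proteoglycan, was among the 5 genes with the smallest SD relative to the mean, at -0.57, -0.73, -0.69, -0.50 and -0.54 (mean -0.61 ± 0.10 SE, limma adjusted p = 0.0117). All 5 animals were negative in each of these genes. For SDC2 their averages lay within a narrow band, while its single arrays ran from -1.10 to -0.20.

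Genes of the stromal matrix were mostly on the negative side. Of 46 measured, 11 passed negative (1.24% of all named genes did) and 1 positive, and 36 had a negative mean. The list median was -0.31, against -0.015 for all named genes. COL6A3, a chain of microfibrillar type VI collagen (gene ID 530657), measured -1.90, -1.51, -1.04, -1.52 and -2.46 (mean -1.69 ± 0.19 SE, limma adjusted p = 0.00263), the smallest adjusted p of any gene. COL3A1, a fibrillar collagen of soft connective tissue, measured -1.64, -0.83, -0.62, -1.63 and -3.79 (mean -1.70 ± 0.31 SE, limma adjusted p = 0.0123). Animal 5 was the most negative in both, and for COL3A1 it lay more than 2 log2 units beyond the others. Without animal 5 the COL3A1 mean was -1.18. The secreted glycoprotein OLFML3 measured -1.36, -0.91, -1.14, -0.43 and -2.18 (mean -1.20 ± 0.22 SE, limma adjusted p = 0.0123). The other negative genes were THY1, MFAP2, SPON1, EMILIN1, COL1A2, COL1A1, SERPINH1 and TNC, with means from -0.97 to -0.58. The type I collagen chains COL1A1 and COL1A2 were most negative in animal 1 (-1.49 and -1.68) and not in animal 5 (-0.87 and -0.26).

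Not all stromal genes lay on that side. CCN2, a matricellular protein induced by TGF-beta and mechanical load, was positive at 0.94, 1.07, 1.04, 1.06 and 1.77 (mean 1.18 ± 0.20 SE, limma adjusted p = 0.0117). Matrix Gla protein (MGP) had a mean of 1.11 and did not pass (adjusted p = 0.0546). The stromal markers VIM and LUM had means of -0.054 and -0.20 and did not pass, and decorin (DCN) had a mean of -0.89 (-0.53 without animal 5) that also missed the threshold. Without animal 5 the counts were again 11 and 1 (list median -0.26), with DPT and SPARC past the threshold and COL1A1 and SERPINH1 not. With the SCNT animals alone they were 2 and 1, where 0.52% of all named genes passed (0.31% negative and 0.211% positive). In pieces of whole tissue, fewer cells of a type and less RNA per cell cannot be told apart.

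The mesenchymal transcription factors had the lowest median of the lists described here, -0.41 over 15 genes. Of these 3 passed, all negative (1.24% of all named genes did). With the SCNT animals fitted alone none passed. By animal the median was -0.49 to -0.24 in animals 1 to 4 and -0.0055 in animal 5, where 7 of 15 genes were positive. SNAI2, a repressor of epithelial junction genes, measured -0.76, -1.09, -0.73, -0.66 and -0.13 (mean -0.67 ± 0.12 SE, limma adjusted p = 0.0117), with animal 5 nearest to 0. TBX3 measured -0.82, -0.43, -0.22, -0.67 and -2.23 (mean -0.88 ± 0.20 SE, limma adjusted p = 0.0382), with animal 5 the most negative and a mean of -0.54 without it. The second probe of TBX3 had a mean of -0.060 and did not pass. The homeobox gene HOXA9 measured -0.67, -0.39, -0.40, -0.60 and -1.75 (mean -0.76 ± 0.17 SE, limma adjusted p = 0.0318). NR2F2, the nuclear receptor of uterine stroma, was negative in all 5 animals (-0.59) but missed the threshold (adjusted p = 0.0811).

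The genes of the protease and adhesion lists that passed were negative, while 14 of 41 and 13 of 42 genes had a positive mean. MMP2, a gelatinase, measured -0.79, -0.44, -0.35, -1.32 and -1.42 (mean -0.86 ± 0.15 SE, limma adjusted p = 0.0117), and the membrane protease ADAM9 -0.29, -0.63, -0.34, -0.49 and -0.60 (mean -0.47 ± 0.087 SE, limma adjusted p = 0.0135). These were the 2 of 41 protease and inhibitor genes that passed, where 1.24% of all named genes passed negative (list median -0.14). Without animal 5 the counts of that list were 2 negative and 1 positive. Among 42 adhesion genes 4 passed, all negative (1.24% of all named genes did), with a list median of -0.11. Without animal 5, 3 passed, all negative (1.02% of all named genes did). The gap junction protein connexin 43 (GJA1) measured -1.92, -1.48, -1.70, -2.33 and -0.98 (mean -1.68 ± 0.27 SE, limma adjusted p = 0.0105), with animal 5 nearest to 0 and animal 4 the most negative. The basement membrane genes were COL18A1, at -1.05, -0.97, -0.34, -0.57 and -2.12 (mean -1.01 ± 0.23 SE, limma adjusted p = 0.033), and LAMA4 with a mean of -0.32. SDC2, given above with pleiotrophin, was the other member that passed.

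Epithelial genes were mostly on the opposite side. Of 33 measured, 4 passed, all positive (0.805% of all named genes did), 25 had a positive mean, and the list median was 0.18. With the SCNT animals fitted alone none passed. Ezrin (EZR), which links membrane to actin in microvilli, measured 0.67, 0.63, 1.11, 0.47 and 2.02 (mean 0.98 ± 0.23 SE, limma adjusted p = 0.0402). The tight junction protein cingulin (CGN) measured 0.36, 0.81, 0.48, 0.77 and 0.89 (mean 0.66 ± 0.12 SE, limma adjusted p = 0.0117), and occludin (OCLN) 0.53, 0.35, 0.36, 0.54 and 0.78 (mean 0.51 ± 0.12 SE, limma adjusted p = 0.0483). The desmosomal protein desmoplakin (DSP) measured 0.96, 0.53, 0.37, 0.33 and 0.99 (mean 0.63 ± 0.14 SE, limma adjusted p = 0.0268). In these 4 genes animal 5 gave the highest value. Over the whole list, however, animal 5 differed from the others: its median was -0.27, with 19 of 33 genes negative, against 0.22 to 0.47 in animals 1 to 4. Without it the list median was 0.33, and the 3 genes past the threshold were CGN, the protease inhibitor SPINT2 (0.86) and claudin 7 (CLDN7, 0.73), all positive. E-cadherin (CDH1), EPCAM, KRT8 and KRT18 had means of 0.77, 0.29, 0.38 and 0.23 and did not pass, and KRT19 had a mean of -0.29. The lowest mean of the list was that of the polarity gene LLGL2, -0.98, with -4.20 in animal 5 and -0.40 to 0.15 in the others (adjusted p = 0.277). The stromal and epithelial lists thus moved with the gene differences above and below 0, and the part of tissue makeup in them was not tested.

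**Figure D3:**
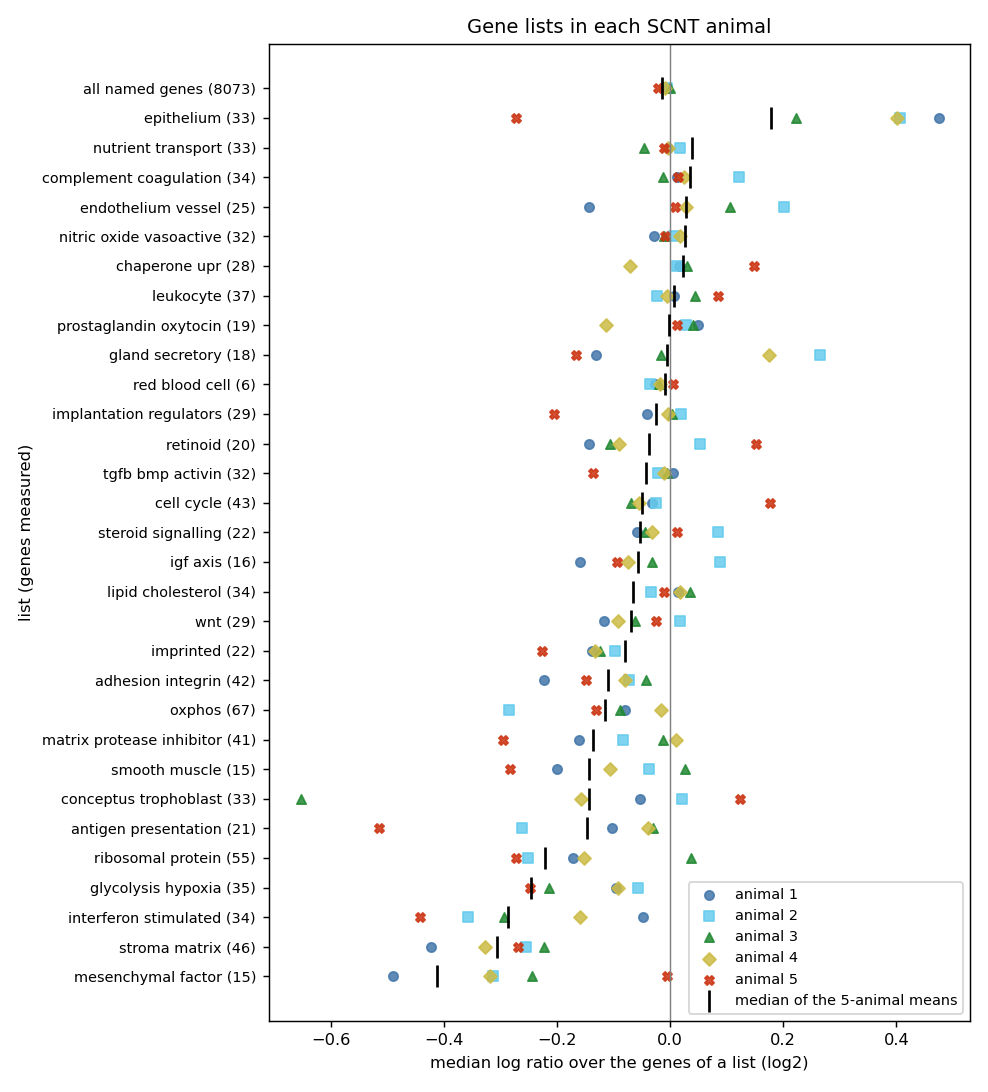
Median log2 ratio (x axis) over the measured genes of each list (y axis, number of genes in parentheses) in each SCNT animal (symbols), with the median of the means over the 5 animals (black bars). Mesenchymal factor and stromal matrix lists have the lowest black bars and the epithelial list the highest, and animal 5 lies apart in the epithelial list and animal 3 in the trophoblast list.

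In the lists of other cell types 1 gene passed. Of 18 gland genes none passed in limma, and the list median was -0.0055. At an unadjusted p under 0.05 there were 6, against 1349 of all 8073 named genes. The uterine serpin SERPINA14 had a mean of -0.079, SPP1 of 0.055 and lactotransferrin (LTF) of 0.52. The largest gland means were those of PTGES, which rested on animal 5, and CST6 (-0.68, adjusted p = 0.34, and -0.21 without animal 5). None of 15 smooth muscle genes passed (4 at an unadjusted p under 0.05, list median -0.14). The largest mean was that of FLNA, -0.59 (-0.12 without animal 5), and TAGLN had -0.36 (-0.084 without it). For desmin (DES) the 2 probes disagreed, the representative one at -0.092 and the other at -0.84 with an adjusted p of 0.0105. None of 25 endothelial genes passed (0 unadjusted, list median 0.029), EGFL7 and ENG having the largest means (-0.67 and -0.38), both with their lowest value in animal 5 (means 0.063 and -0.065 without it). With animal 5 left out, 1 endothelial gene passed, on the positive side. Of 6 red blood cell genes none passed (0 unadjusted), the largest means being -0.12 for AHSP and -0.064 for SLC4A1.

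Among 37 leukocyte genes 1 passed, the immunoglobulin heavy chain IGHG1, at -1.003, -0.40, -1.39, -1.22 and -3.73 (mean -1.55 ± 0.33 SE, limma adjusted p = 0.0238). Every animal was negative, animal 5 most of all, while the list median was 0.0069. The count of 1 among 37 is near the share of all named genes that passed (2.04%). Without animal 5 the mean was -1.003 (adjusted p = 0.0167). In IVF-ET animals the mean of IGHG1 was 0.23, and the difference between the groups had an adjusted p of 0.915.

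Trophoblast genes divided the animals. None of 33 measured passed over the 5 animals, and the list median was -0.14. In limma 7 were at an unadjusted p under 0.05, against 1349 of all 8073 named genes. PAG2, a pregnancy-associated glycoprotein secreted by trophoblast, measured 0.080, -0.11, -2.82, -2.42 and 0.070 (mean -1.04 ± 0.34 SE, limma adjusted p = 0.137). TKDP1, a trophoblast Kunitz domain protein, measured -0.012, -0.25, -2.72, -2.38 and -0.033 (mean -1.08 ± 0.32 SE, limma adjusted p = 0.1). Both genes were strongly negative in animals 3 and 4 and close to 0 in animals 1, 2 and 5. The interferon tau gene IFNT2 measured -0.15, 0.21, -2.39, -0.79 and 0.090, so that animal 3 carried most of its difference. In animal 3, 15 of the 33 genes lay below -1, in animal 4 6, in animal 1 1, and in animals 2 and 5 none. Without animal 5, TKDP1 and TKDP4 passed, both negative (list median -0.30). By the same division H19 was -1.34 and -2.13 in animals 3 and 4, and -2.51, -2.99 and -3.37 in animals 1, 2 and 5, where PAG2 and TKDP1 were near 0. IGF2 was -0.79 and -0.80 in animals 3 and 4, and -0.80, -0.58 and -0.96 in animals 1, 2 and 5. The source of the H19 and IGF2 RNA was not tested.

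The maternal genes known to respond to interferon tau were mostly negative, with none past the threshold in limma. At an unadjusted p under 0.05 there were 9 of 34, against 1349 of all 8073 named genes. Of the 34 interferon-stimulated genes 30 had a negative mean, as did 4372 of all 8073 named genes. The median was -0.29 (-0.015 for all named genes). The GTPase gene MX2 measured 0.031, -0.94, -0.93, -0.41 and -2.71 (mean -0.99 ± 0.33 SE, limma adjusted p = 0.143), and IFIT3 -0.015, -0.998, -0.51, -0.47 and -2.45 (mean -0.89 ± 0.29 SE, limma adjusted p = 0.139). In both, animal 5 was the most negative and animal 1 was near 0, and without animal 5 the means were -0.56 and -0.50. The ubiquitin-like modifier ISG15 had a mean of -0.82, with -3.07 in animal 5 and 0.23 in animal 3 (mean -0.26 without animal 5). By animal, the list median was -0.049 in animal 1 and lowest in animal 5 at -0.44, and animal 2 had 33 of 34 genes negative. Among 21 antigen presentation genes none passed (5 unadjusted) and 19 had a negative mean (list median -0.15). The proteasome genes PSMB10 and PSME2 had the largest means (-0.58 and -0.51, and -0.19 and -0.28 without animal 5).

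Signalling and transcription factor genes of implantation lay on both sides. Of 29 measured, 4 passed negative and 1 positive (1.24% and 0.805% of all named genes did), with a median of -0.025. Without animal 5 the counts were 3 and 3 and the median 0.045. MSX1, a homeobox gene of the uterine epithelium that governs receptivity, was positive at 1.11, 1.07, 1.25, 1.40 and 0.97 (mean 1.16 ± 0.22 SE, limma adjusted p = 0.0143). Its averages per animal spanned a narrow range, while its single arrays ran from 0.30 to 1.91. The second probe of MSX1, at 0.057, did not pass. Follistatin (FST), which binds activin, was negative at -1.44, -1.07, -1.22, -1.15 and -0.53 (mean -1.08 ± 0.26 SE, limma adjusted p = 0.0483). Here animal 5 was nearest to 0. PTN, MDK and HOXA9, given above, were the other negative genes. FST was also the 1 gene of 32 in the TGF-beta, BMP and activin list that passed (list median -0.043). This is near the share of all named genes that passed (2.04%).

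In the WNT pathway 3 of 29 genes passed, all negative (1.24% of all named genes did), with a median of -0.070. The secreted WNT antagonists SFRP1 and SFRP2 measured -1.28, -1.84, -0.89, -1.24 and -1.33 and -1.98, -1.63, -0.80, -1.11 and -0.82 (means -1.32 and -1.27, limma adjusted p = 0.0117 and 0.0105). All animals were negative in both genes. In animal 2 SFRP1 had 1 array with a value, -2.11 before the dye effect was taken off. The effector TCF7L2 had a mean of -0.49, with animal 5 at -0.070. SFRP4, SFRP5 and FRZB, of the same family of antagonists, had means of 0.16, 0.060 and 0.14 and did not pass. Other genes known to act with this pathway lay on both sides. PTK7, a receptor-like pseudokinase of planar cell polarity, measured -0.96, -0.69, -0.96, -0.44 and -2.08 (mean -1.03 ± 0.18 SE, limma adjusted p = 0.0117), and CCDC88C, which binds Dishevelled, 0.72, 1.10, 0.73, 0.67 and 1.25 (mean 0.89 ± 0.16 SE, limma adjusted p = 0.0117). The other 2 probes of CCDC88C had means of 0.043 and 0.15 and did not pass.

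Prostaglandin genes included 1 called gene on each side among 19 (list median -0.0027), where 1.24% of all named genes passed negative and 0.805% positive. HPGD, the enzyme that inactivates prostaglandins (gene ID 512259), was positive at 0.96, 1.62, 1.81, 1.72 and 1.95 (mean 1.61 ± 0.29 SE, limma adjusted p = 0.0123), a 3.06-fold difference. PTGDS, which makes prostaglandin D, was negative at -1.01, -0.60, -0.68, -0.40 and -2.14 (mean -0.97 ± 0.21 SE, limma adjusted p = 0.0276). Animal 1 had the lowest value of HPGD and animal 5 the most negative of PTGDS, whose mean without animal 5 was -0.67. PTGS2, the inducible cyclooxygenase, had a mean of -0.019, and the receptors OXTR and PTGFR had means of -0.0027 and 0.065. The prostaglandin E synthase gene PTGES had values in 4 animals, 0.29, -0.22, 0.42 and -5.67 in animals 1, 3, 4 and 5, of which only that of animal 5 was far from 0. Animals 4 and 5 had 1 array each with a value for PTGES, 0.22 and -5.47 before the dye effect was taken off.

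Among 32 vasoactive genes, 1 passed positive and 2 negative (list median 0.027), where 0.805% of all named genes passed positive and 1.24% negative. GUCY1B1, the beta subunit of the guanylate cyclase that senses nitric oxide, was positive at 1.43, 2.08, 1.04, 1.14 and 1.38 (mean 1.41 ± 0.26 SE, limma adjusted p = 0.0125), with animal 2 the highest. The vasodilator peptide adrenomedullin (ADM) measured -0.55, -0.49, -1.04, -0.76 and -0.24 (mean -0.61 ± 0.15 SE, limma adjusted p = 0.0496), and heme oxygenase HMOX1 -0.38, -0.93, -0.58, -0.41 and -0.82 (mean -0.62 ± 0.12 SE, limma adjusted p = 0.0135). Both were negative in every animal. ADM and HMOX1 are also counted among 35 genes of glycolysis and hypoxia (list median -0.25). Of these 4 passed negative and 1 positive, as did 1.24% and 0.805% of all named genes. The glycolytic enzyme PGK1 measured -0.26, -1.12, -0.29, -0.26 and -1.07 (mean -0.60 ± 0.13 SE, limma adjusted p = 0.0257), with animals 2 and 5 the most negative. All 7 probes of PGK1 were negative. PGAM1 had a mean of -0.48, and the kinase PFKFB3, which raises glycolytic flux, was positive at 0.50, 0.52, 0.97, 0.21 and 0.63 (mean 0.57 ± 0.11 SE, limma adjusted p = 0.0173). GAPDH had a mean of -0.88, led by -2.53 in animal 5, and did not pass (without animal 5, -0.47). Without animal 5 the list had 2 negative genes and 1 positive gene past the threshold, and a median of -0.10.

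In retinoid handling 1 of 20 genes passed, the retinol uptake receptor STRA6, at -1.43, -1.08, -0.91, -1.41 and -1.67 (mean -1.300 ± 0.21 SE, limma adjusted p = 0.0105; list median -0.038). All 5 animals were negative. RBP4, the plasma carrier of retinol that binds STRA6, had a mean of 0.41 (adjusted p = 0.297). With animal 5 left out, 2 retinoid genes passed, both negative. Of all named genes 1.24% passed negative, and 1.02% did without animal 5. Of 33 nutrient transport genes 1 passed, the fatty acid transporter SLC27A6, at 1.57, -0.032, 0.94, 1.25 and 2.44 (mean 1.23 ± 0.28 SE, limma adjusted p = 0.0334; list median 0.039). Animal 2 was near 0. The count of 1 among 33 is near the share of all named genes that passed (2.04%). Without animal 5 SLC27A6 had a mean of 0.93 and missed the threshold (adjusted p = 0.0754).

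The remaining genes with the largest means belonged to varied families. On the positive side, the uncharacterised LOC613966 measured 1.35, 1.43, 1.32, 2.00 and 1.97 (mean 1.61 ± 0.26 SE, limma adjusted p = 0.0105). MCOLN2, a cation channel of endosomes, measured 2.04, 1.25, 1.54, 0.53 and 0.93 (mean 1.26 ± 0.25 SE, limma adjusted p = 0.0173), with animal 4 the lowest. The water channel AQP4 measured 1.40, 0.63, 1.302, 0.35 and 1.005 (mean 0.94 ± 0.18 SE, limma adjusted p = 0.0175). FRY, MPPED2, SMS (spermine synthase), BPIFB1 (a secreted mucosal defence protein), SPA17 and ALAD (a heme synthesis enzyme) had means from 0.89 to 1.15, with every animal positive. On the negative side, the selenoprotein gene SELENOW measured -0.71, -1.01, -0.32, -0.52 and -2.85 (mean -1.08 ± 0.25 SE, limma adjusted p = 0.0398). Animal 5 was the most negative, and without it SELENOW passed with a mean of -0.64. Of the 53 genes past the threshold that the naming rule chose (the largest means, the list examples and the smallest relative SDs), 11 missed it without animal 5: ARHGAP10, COL18A1, DSP, EZR, HOXA9, LAMA4, OCLN, PGK1, SLC27A6, SPA17 and ST6GALNAC6. Without animal 1, only COL6A3 of the 53 passed. With the SCNT animals fitted alone, 24 of the 53 passed and 29 missed the threshold. Among those that missed it were COL3A1, IGHG1, IGFBP6, SELENOW and PTGDS (limma adjusted p = 0.169, 0.214, 0.161, 0.289 and 0.168).

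**Figure D4:**
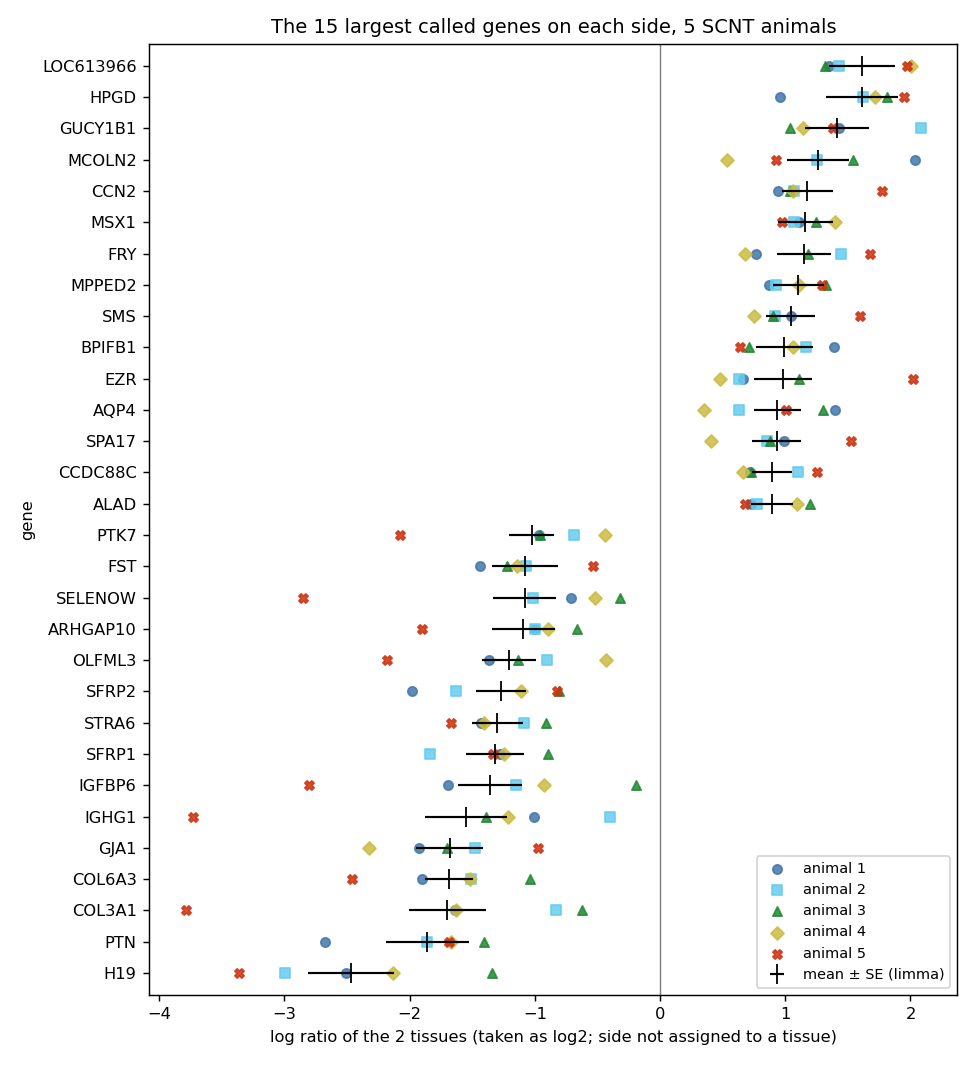
Log2 ratio (x axis) of the 15 genes on each side with the largest mean among those past the threshold with all 5 animals on 1 side (y axis), in each of the 5 SCNT animals (symbols), with the mean and its SE from limma (black). That every animal lies on the side of the mean follows from this choice, which left out SLC27A6 (1.23) and IL6R (1.04). Animal 5 is the most negative of the 5 in H19, COL3A1, COL6A3, IGHG1, IGFBP6, STRA6, OLFML3, ARHGAP10, SELENOW and PTK7.

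Among the genes past the threshold, those with the smallest SD relative to the mean were GPX8, an endoplasmic reticulum peroxidase, the orphan receptor MRGPRF, MSX1, SDC2 and the sialyltransferase ST6GALNAC6. GPX8 measured -0.70, -0.61, -0.54, -0.53 and -0.71 (mean -0.62 ± 0.093 SE, limma adjusted p = 0.0105). MRGPRF measured -0.60, -0.66, -0.47, -0.58 and -0.72 (mean -0.60 ± 0.11 SE, limma adjusted p = 0.0126), and ST6GALNAC6 -0.37, -0.38, -0.36, -0.30 and -0.40 (mean -0.36 ± 0.083 SE, limma adjusted p = 0.0373). In all 3, animal 5 had the most negative value and lay close to the next. These are averages of 2 arrays per animal, and single arrays were wider apart. They ran from -0.94 to -0.30 for GPX8, from -1.07 to -0.084 for MRGPRF and from -0.64 to -0.0081 for ST6GALNAC6.

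The genes with the largest range among animals all owed it to animal 5. They were PTGES, the GTPase RAC3, the ribosomal protein RPS2, the trafficking gene TRAPPC5, SREBF1 (a regulator of lipid synthesis), USH1G, SH3GLB2 and CPNE1. RAC3 measured 0.25, -0.43, 0.14, 0.071 and -5.38 and RPS2 -0.23, -0.46, -0.24, -0.16 and -5.38. In animal 5 the 8 genes lay between -5.67 and -3.997, and in the other animals between -0.46 and 1.12. None passed the threshold. Ribosomal protein genes as a list had no gene past it among 55 (17 at an unadjusted p under 0.05). A negative mean was found in 47 (list median -0.22, and -0.15 without animal 5). For all 8073 named genes these counts were 1349 and 4372. In animal 5 11 of them lay below -2, among them RPL19 at -4.20, and in animals 1 to 4 none.

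No gene passed in the lists of complement and coagulation (34 genes, median 0.035), steroid signalling (22, -0.054), oxidative phosphorylation (67, -0.11), cell cycle (43, -0.050), lipid and cholesterol metabolism (34, -0.066) and chaperones (28, 0.022). With animal 5 left out, 1 gene passed in the steroid signalling list and 1 in the lipid and cholesterol list, both positive. The complement protease C1S and its inhibitor SERPING1 were negative in all 5 animals. C1S measured -0.65, -0.79, -0.90, -0.69 and -4.60 (mean -1.52 ± 0.43 SE, limma adjusted p = 0.0849) and SERPING1 -0.69, -0.44, -0.58, -0.36 and -3.68 (mean -1.15 ± 0.35 SE, limma adjusted p = 0.11). Animal 5 lay far from the other 4 in both, and without it the means were -0.75 and -0.52 (adjusted p = 0.0673 and 0.115). Beside NR2F2 and SREBF1, given above, the largest means of the other lists were HSD11B2 at -0.65, ATP5F1D at -0.85, CYC1 at -0.73, FASN at -0.71 and HYOU1 at -0.93 on the negative side, and GMNN at 0.63, RRM1 at 0.47 and HSPB8 at 0.65 on the positive. At an unadjusted p under 0.05 these 6 lists had, in the order given, 9, 5, 19, 7, 8 and 4 genes. All 8073 named genes had 1349. For HSD11B2, ATP5F1D, CYC1, FASN and HYOU1 the lowest value was that of animal 5, and the means without it were -0.30, -0.21, -0.23, -0.42 and -0.11.

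The regional differences of SCNT animals were set beside those of the other pregnancies. Of the 252 probes, 247 (98.0%) had the same sign in the IVF-ET mean over 4 animals, as did 57.2% of all probes, with a median absolute mean of 0.38 in IVF-ET. The probes were chosen on their SCNT values, so a smaller mean in IVF-ET is no difference between the groups. IVF-ET replicate 3, labelled with the same dye orientation on both arrays, was left out of the fit. H19 was -1.10 in IVF-ET, PTN -1.51, GJA1 -1.77, CCN2 1.26 and HPGD 1.05. No probe differed between SCNT and IVF-ET animals (limma, smallest adjusted p 0.915, and 610 probes at an unadjusted p under 0.05). This does not show that the groups were alike, and for H19 the SCNT mean minus the IVF-ET mean was -1.36 ± 0.52 (SE).

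In AI animals 29 of the 252 probes (11.5%) had the same sign as deposited and 223 the opposite sign, against 44.1% of all probes with the same sign. SCNT and AI animals differed in 131 probes (0.948% of those tested), 57 positive and 74 negative, and 112 of the 131 were among the 252. With the sign of all AI arrays turned, no probe differed (896 at an unadjusted p under 0.05). The labels do not settle whether the AI arrays were deposited in the same direction, so no gene is described here as different between SCNT and AI.

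**Figure D5:**
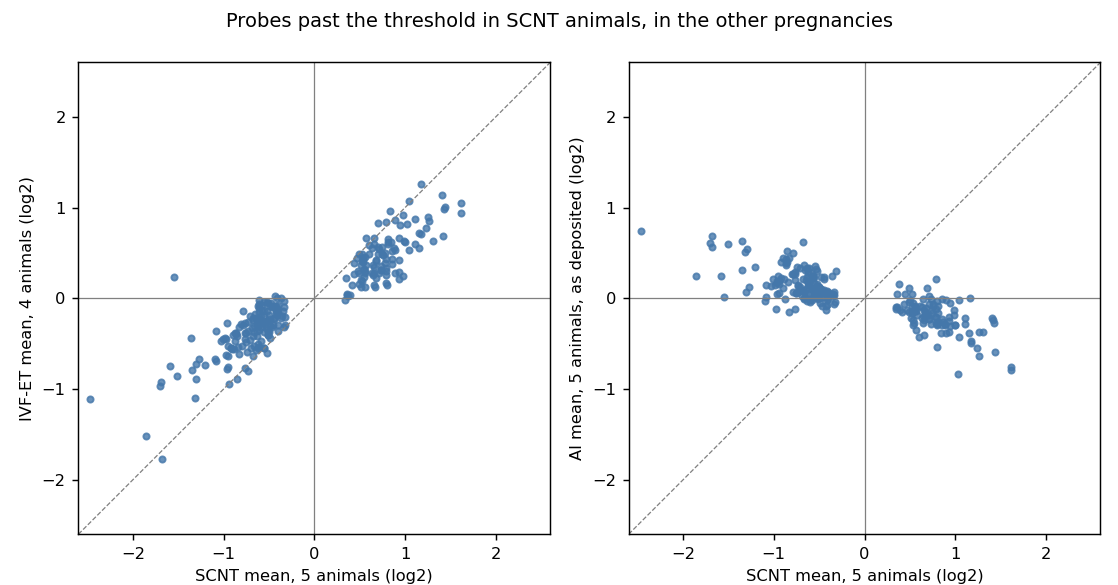
Mean log2 ratio in IVF-ET (left, 4 animals) and AI (right, 5 animals, as deposited) animals on the y axes against the SCNT mean on the x axes, for the 252 probes past the threshold in SCNT animals. IVF-ET means lie on the same side of 0 for 247 probes (dashed line, equal values; the probes were chosen on the SCNT values), and AI means lie on the opposite side for 223.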

How the data were processed

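Total RNA of caruncular and intercaruncular endometrium was labelled with Cy3 or Cy5 and hybridised in pairs, per the labels' protocols. The authors deposited 1 log ratio per spot and array, used here as log2. Its normalisation, base and numerator are not given in the sources used here. Scanner intensities were not used here. Probes were named from the platform annotation: 8645 of 13824 had 1 symbol, 105 several and 5074 were not listed. Of the named probes, 8620 had a gene ID in the RefSeq table. The 8750 listed pairs of adjacent spots all shared an accession, and spots were averaged as 1 probe. Log ratios were centred per array and averaged per animal, which is the replicate. An animal with a value on 1 array only entered with that value less the mean dye effect of the probe. limma 3.58.1 (R 4.3.3) fitted 1 mean per group (AI 5, IVF-ET 4, SCNT 5 animals) to 13818 probes with values in at least 4 SCNT animals, and tested SCNT against 0, two-sided, with Benjamini-Hochberg adjustment and a threshold of 0.05. A gene with several probes was represented by the probe with most array values. On simulated data for SCNT against 0 with 200 of 13822 probes changed, 98% of shifts of 1 and 100% of shifts of 2 log2 units were recovered, and 6.19% of calls were false. The simulation gave every animal the same spread for a probe, unlike the data, where animal 5 had a wider one. These rates therefore do not carry over to the data. Of the 252 probes called, 39 had an absolute mean above 1, and the recovery of smaller shifts is not given here.

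Genes were named by rule: the 15 largest means on each side past the threshold with all animals on 1 side, up to 4 called members of each of 30 lists (or 2 with the largest mean where none was called), the 8 largest ranges and the 5 smallest SDs relative to the mean. Other members are given as examples chosen after their values were seen. The samples and lists were chosen with earlier results of these data known, so lists are described by counts and medians. Alternatives covered the animals in the fit, dye reading, centring, scaling, spot filter, single arrays, robust moderation and leaving out each animal. The number of arrays limits the precision.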

Additional observations from a re-analysis of the deposited data

Results flagged for a closer look

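A test of whether 1 animal lies apart (Dixon's ratio at its 95% level) was applied to 116 series of 4 or 5 SCNT values, the named genes and the list medians, and chance marks about 5% of such series. It marked 27, of which 25 were set apart by animal 5, 1 by animal 2 and 1 by animal 4. Some of the genes were named for their large range among animals or their large mean, so the number marked is a description and is not to be read against that rate.

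Animal 5 was the lowest in PTGES at -5.67 (4 values, that of animal 5 from 1 array), RPS2 at -5.38, RAC3 at -5.38, SREBF1 at -4.84 and TRAPPC5 at -4.84. The same held for USH1G at -4.78, HYOU1 at -4.22, RPL19 at -4.20, SH3GLB2 at -4.11, CPNE1 at -3.997 and EGFL7 at -3.596. It was also the lowest in C1S at -4.60, SERPING1 at -3.68, ATP5F1D at -3.39, CYC1 at -2.72, FLNA at -2.48, PSMB10 at -2.12 and HSD11B2 at -2.03. Among genes past the threshold it was the lowest in SELENOW at -2.85, ARHGAP10 at -1.90 and HOXA9 at -1.75, and the highest in CCN2 at 1.77.

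Of the list medians, animal 5 was set apart in the TGF-beta, BMP and activin list (-0.14), the implantation list (-0.21) and the cell cycle list (0.18). Animal 2 was the highest in complement and coagulation (0.12) and animal 4 the lowest in the prostaglandin list (-0.11).

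Between groups, 131 probes differed between SCNT and AI animals as deposited, and none with the AI sign turned.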

How the results depend on the processing

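The count of 252 probes depended on the animals in the fit. With the SCNT animals alone 74 probes and 16 list genes passed (46 list genes in the report's fit), and without the AI animals 319 probes did, 219 of them among the 252. Leaving out each SCNT animal in turn gave 2 to 222 probes and 1 to 49 list genes. The lowest counts were those without animal 1 (2 probes), and then without animal 2 (95 probes, 24 list genes), animal 3 (108 probes), animal 4 (167 probes) and animal 5 (222 probes, 151 of them among the 252). When IVF-ET replicate 3 was included with the sign of its second array changed, 0 probes and 0 list genes passed in limma. At an unadjusted p under 0.05 there were then 1931 probes, against 2043 in the report's fit. With the sign of its first array changed 287 probes passed. The cause was not tested. Without centring 253 probes passed, with arrays scaled to 1 spread 344, with both spots required 251 and with robust moderation 258. Single arrays with the animal as a random block gave 277, of which 177 were among the 252. The balance of sides also varied, from 106 positive and 146 negative in the report's fit. It was 151 and 126 with the random block, 160 and 159 without the AI animals and 38 and 36 with the SCNT animals alone. All 252 kept their sign under these settings, except that 7 were not tested where both spots were required. SCNT against IVF-ET gave 0 probes in each alternative run, and SCNT against AI 0 with the AI sign turned.

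Read as dye ratios, 0 probes and 0 list genes passed (1321 probes at an unadjusted p under 0.05). The overall sign of this reading rests on which dye is taken as numerator, which the labels do not give. Its signs therefore say nothing about direction. With Cy5 taken as numerator, 36 of the 53 named genes past the threshold had the sign opposite to that of the main fit. Their means were then 0.037 for ADM, -0.082 for AQP4, 0.15 for ARHGAP10, -0.27 for BPIFB1, -0.25 for CCDC88C, -0.12 for CCN2, 0.34 for COL18A1, 0.30 for COL3A1, 0.12 for COL6A3, -0.27 for DSP, -0.067 for FRY, 0.013 for FST, 0.073 for GPX8, -0.057 for GUCY1B1, 0.42 for H19, 0.071 for HMOX1, -0.14 for HPGD, 0.061 for IGF2, 0.37 for IGFBP6, 0.075 for IGHG1, -0.14 for MCOLN2, 0.31 for MMP2, -0.11 for MPPED2, -0.26 for MSX1, 0.35 for PGK1, 0.18 for PTGDS, 0.013 for PTK7, 0.33 for PTN, 0.10 for SDC2, 0.076 for SELENOW, 0.47 for SFRP1, 0.012 for SFRP2, -0.15 for SMS, -0.22 for SPA17, 0.18 for STRA6 and 0.098 for TBX3. Each array pairs the 2 tissues of 1 animal, so the test of the ratio against 0 is itself paired within animals. The groups could not be paired with each other, because their replicate numbers name different animals.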
